A study of Mus musculus with 6 samples.

Results

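The forkhead genes encode transcription factors that share a winged-helix DNA-binding domain, the forkhead box. The 40 genes described here are the protein-coding genes of GENCODE vM21 on mouse chromosomes 1 to 19 whose symbols begin with Fox, a letter from a to s and a number, with 1 exception that is not reported here. They are 40 of 20807 protein-coding genes on these chromosomes. For each gene, peaks of H3K4me3 and of HA-tagged ASH2L were looked up at the promoter of each annotated transcript, which was taken as the 1000 bp before its start site and the 100 bp after it. A gene with at least 1 bp of overlap was called marked.

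The peaks came from CUT&RUN, in which an antibody tethers protein A-MNase to its target and the released DNA is sequenced. The cells were E14, a mouse embryonic stem cell line. The HA-Ash2L E14 line, a picked colony in which a transposon vector expresses HA-ASH2L under doxycycline, gave 2 samples for anti-HA and 2 for anti-H3K4me3. Parental wild-type E14 cells gave 2 further anti-HA samples, which are not analysed here. According to the labels, all cells received doxycycline for 48 h, and 1000000 cells were used for anti-HA and 100000 for anti-H3K4me3, whereas the methods give a single cell number for both. The labels call the genotype of the line a knock-in, whereas the methods describe stable integration of a piggyBac vector. The methods call the duplicates independent biological replicates, and each list pools them. No value of a single sample exists in the lists, and no test between samples was possible, so that all values below describe 1 merged library per antibody.

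H3K4me3 is the histone mark of active and poised promoters. It is deposited by the MLL/SET1 methyltransferases, of which ASH2L is a core subunit. In embryonic stem cells, most developmental regulators are not expressed, yet many keep H3K4me3 at CpG-rich promoters together with the Polycomb mark. The forkhead family spans both kinds of gene. Foxh1, which carries Nodal signals with SMAD2, and Foxd3 act in the early embryo, Foxo1 and Foxo3 respond to insulin and stress, Foxm1 drives mitotic genes, and members such as Foxn1 or Foxl2 direct the development of particular tissues.

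The H3K4me3 list held 59927 peaks and the ASH2L list 2464 peaks. After removal of redundant tags, 27328071 tags entered the H3K4me3 peak calling and 25677963 the ASH2L peak calling, of which 45.7% and 0.398% lay in peaks. Tags are therefore compared only within a list. Pluripotency genes were used to check the label of the cells, and the check limits what the absence of a peak can mean. Among 7 such genes, Klf4, Esrrb and Zfp42 had a promoter H3K4me3 peak, whereas Pou5f1, Sox2, Nanog and Dppa5a had none. The stretch without any peak around their gene starts measured 21081 bp at Pou5f1 and 53397 bp at Sox2, the shortest and the longest of these 4. Among 6 genes of differentiated tissues, Krt14 had a peak and the others had none. The longest peak in the whole H3K4me3 list was 8609 bp. A forkhead gene without a listed peak is for this reason described as unmarked in the list, not as free of H3K4me3.

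Of the 40 forkhead genes, 35 had an H3K4me3 peak at the promoter (87.5%), beside 69.8% of all protein-coding genes. The order turned when only peaks at or above the median fold enrichment of the list were used (15% of members, 36.7% of all genes) or when the peak midpoint had to lie in the promoter (27.5% and 38.1%). The members without one were Foxa1, Foxd3, Foxi1, Foxn1 and Foxq1. An ASH2L peak was found at 6 members (15%), Foxe3, Foxh1, Foxj2, Foxj3, Foxm1 and Foxp1, beside 8.07% of all protein-coding genes. Among genes with H3K4me3, the share with ASH2L was 17.1% for the members and 11.3% for all genes. With 6 members, this share rests on few genes, and among promoters with a high CpG ratio the order turned.

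The promoters differed in CpG dinucleotides, and the sequences below show marked and unmarked members across this range. They are taken from RefSeq on GRCm38.p6, the assembly also called mm10, and run from 250 bases before to 50 bases after the RefSeq start, with every CpG in capitals. RefSeq starts may differ from those of GENCODE. The table used held 25 of the 40 members, with a median of 26 CpGs in 300 bases, beside 7 in all 32851 promoters. Foxi3, needed for ear and craniofacial development, and Foxd1, expressed in the kidney stroma, were marked and had 31 and 15 CpGs.

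Foxi3, chr6:70956356-70956655, forward strand: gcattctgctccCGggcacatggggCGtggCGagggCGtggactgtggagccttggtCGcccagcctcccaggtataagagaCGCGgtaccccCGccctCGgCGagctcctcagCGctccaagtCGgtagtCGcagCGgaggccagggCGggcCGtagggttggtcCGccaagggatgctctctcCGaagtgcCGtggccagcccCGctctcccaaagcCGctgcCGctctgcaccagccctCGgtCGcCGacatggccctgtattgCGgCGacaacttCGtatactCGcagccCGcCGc

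Foxd1, chr13:98353995-98354294, forward strand: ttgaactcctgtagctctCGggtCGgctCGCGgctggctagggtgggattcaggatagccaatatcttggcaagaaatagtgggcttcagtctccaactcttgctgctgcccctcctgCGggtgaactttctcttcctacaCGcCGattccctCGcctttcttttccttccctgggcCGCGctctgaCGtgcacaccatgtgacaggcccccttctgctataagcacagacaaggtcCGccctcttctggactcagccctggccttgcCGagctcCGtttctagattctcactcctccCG

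Foxd3 and Foxa1 carried 25 and 26 CpGs here and were both unmarked at their GENCODE promoters. With RefSeq transcripts Foxa1 was marked, but not at the start printed here, since no peak was listed between chr12:57540190 and chr12:57548277. Foxa1 is a pioneer factor of endoderm, and Foxd3 acts in pluripotent cells and the neural crest.

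Foxd3, chr4:99656049-99656348, forward strand: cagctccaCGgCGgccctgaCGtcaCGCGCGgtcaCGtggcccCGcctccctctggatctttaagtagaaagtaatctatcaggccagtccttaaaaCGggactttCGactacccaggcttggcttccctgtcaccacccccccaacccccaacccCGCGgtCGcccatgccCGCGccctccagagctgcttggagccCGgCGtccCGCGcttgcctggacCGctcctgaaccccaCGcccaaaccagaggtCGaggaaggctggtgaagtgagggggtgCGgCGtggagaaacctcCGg

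Foxa1, chr12:57546062-57546361, reverse strand: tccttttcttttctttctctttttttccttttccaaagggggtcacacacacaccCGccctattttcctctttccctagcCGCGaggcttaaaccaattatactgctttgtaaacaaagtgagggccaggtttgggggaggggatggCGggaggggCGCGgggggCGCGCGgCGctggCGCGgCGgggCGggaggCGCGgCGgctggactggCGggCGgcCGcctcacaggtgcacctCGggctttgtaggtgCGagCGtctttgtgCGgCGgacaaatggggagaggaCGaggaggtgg

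Foxn1, the regulator of thymic epithelium and hair, and Foxi1, a factor of the inner ear and of acid-secreting kidney cells, had 8 and 6 CpGs and were unmarked.

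Foxn1, chr11:78386559-78386858, reverse strand: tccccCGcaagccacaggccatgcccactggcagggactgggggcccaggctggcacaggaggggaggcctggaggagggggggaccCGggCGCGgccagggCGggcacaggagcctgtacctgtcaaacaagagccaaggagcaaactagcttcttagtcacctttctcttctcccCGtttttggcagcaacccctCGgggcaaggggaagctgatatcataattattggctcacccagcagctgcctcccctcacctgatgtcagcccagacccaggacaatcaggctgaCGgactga

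Foxi1, chr11:34208040-34208339, reverse strand: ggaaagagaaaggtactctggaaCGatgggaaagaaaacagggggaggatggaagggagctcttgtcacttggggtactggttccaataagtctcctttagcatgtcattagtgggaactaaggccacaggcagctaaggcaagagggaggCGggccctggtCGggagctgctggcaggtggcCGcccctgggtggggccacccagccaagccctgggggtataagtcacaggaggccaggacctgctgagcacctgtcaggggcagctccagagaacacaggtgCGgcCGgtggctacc

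The CpG ratio, observed over expected from the C and G content, was computed on the 1101 bp promoter window of every gene start. Its median was 0.68 over the members and 0.40 over all protein-coding genes. A ratio of 0.6 or more was found at 24 members (60%) and at 27.3% of all genes. Of these 24 members, 23 were marked, beside 95.7% of all genes with such a ratio. Below 0.6, 12 of 16 members were marked, beside 60.1% of all genes. Within the class of 0.6 or more, the median ratio was 0.76 over the members and 0.72 over all genes. Within the class below 0.6, it was 0.34 over the members and 0.28 over all genes. No member had a ratio below 0.1, where 8.58% of 1794 genes were marked. The shares below 0.6 thus compare promoters of unlike CpG content. The unmarked member in the class of 0.6 or more was Foxd3, at 0.74. Foxa1 had a ratio of 0.35 at its GENCODE gene start, although its RefSeq promoter printed above has 26 CpGs, so that the CpG content read for it depends on the start used. The other unmarked members were lower, Foxn1 at 0.22, Foxq1 at 0.19 and Foxi1 at 0.16. For ASH2L, 3 of the 24 members with a ratio of 0.6 or more had a peak (12.5%), beside 15.2% of all such genes, and 3 of the 16 others (18.8%), beside 5.41%. A low ratio did not go with the lack of a peak at every member, since Foxh1 (0.13), Foxi2 (0.14) and Foxs1 (0.18) were marked. The peak at Foxh1 also contains a start of Ppp1r16a, and its summit, at −1654 bp, lies outside the window used for the ratio.

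**Figure D1:**
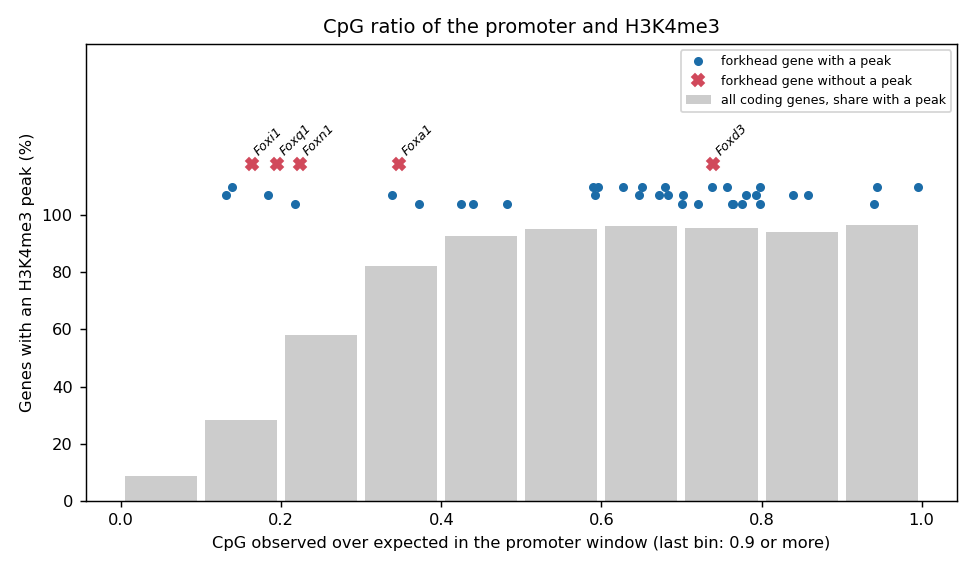
Grey bars give the percentage of all protein-coding genes with a promoter H3K4me3 peak, by CpG observed over expected of the promoter window in bins of 0.1, and symbols above the bars place each forkhead gene on the same axis, with no meaning in their height. Of the 5 forkhead genes without a peak, Foxd3 lies at 0.74 and the others between 0.16 and 0.35.

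The number of start sites also differed. A single start site was annotated for 23 members, of which 19 were marked (82.6%), beside 41.9% of all genes with a single start site. These 2 sets also differed in CpG content. A CpG ratio of 0.6 or more was found at 60.9% of these members and at 15.7% of these genes. The part of CpG content in the difference was not tested. Of 17 members with more start sites, 16 were marked (94.1%), beside 77.3%. Counted by start site, 95 of 134 were marked (70.9%), beside 58.4% of all start sites of protein-coding genes.

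The unmarked members differed in what lay around them. At Foxq1, a regulator of hair differentiation, a peak of 3403 bp with 604 tags and a fold enrichment of 4.99 began 996 bp downstream of the gene start and covered 70.3% of the gene. It thus lay outside the promoter window, which ends at 100 bp. At Foxa1, a peak of 2646 bp with 263 tags ended 1361 bp upstream of the gene start, and another of 2316 bp with 286 tags began 6726 bp downstream, beyond the end of the gene. Their p-value scores, −log10 p multiplied by 10, were 81.37 and 97.53, and the cutoff is 50. At Foxd3, no peak was listed from 12794 bp upstream to 12871 bp downstream, a stretch of 25664 bp. The stretch measured 25613 bp at Foxn1, 108165 bp at Foxi1, 8086 bp at Foxa1 and 173902 bp at Foxq1, nearly all of it upstream. Those of Foxd3 and Foxn1 lie within the range of 21081 bp to 53397 bp of the ES cell markers without a peak, and the other 3 lie outside it. Stretches over all unmarked genes are not given, so that the range of these few markers does not sort the members. The CpG ratio of these markers was 0.82 at Sox2 and from 0.21 to 0.30 at the other 3, so that CpG-rich and CpG-poor promoters occur among them as among the unmarked forkhead genes.

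The length of the promoter peak varied widely among the marked members. Where a gene had several promoter peaks, the longest was used. Its median was 3968 bp over the 35 marked members, with a range from 1563 bp to 7987 bp, beside 2975 bp over all marked genes. Of the 35, 28 were longer than that overall median. A length of 5000 bp or more was found at 9 members (25.7%), beside 12.9% of all marked genes. The 5 longest were Foxh1, Foxp4, Foxp1, Foxb2 and Foxo3, and the 5 shortest were Foxr1, Foxs1, Foxe3, Foxl1 and Foxi3.

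**Figure D2:**
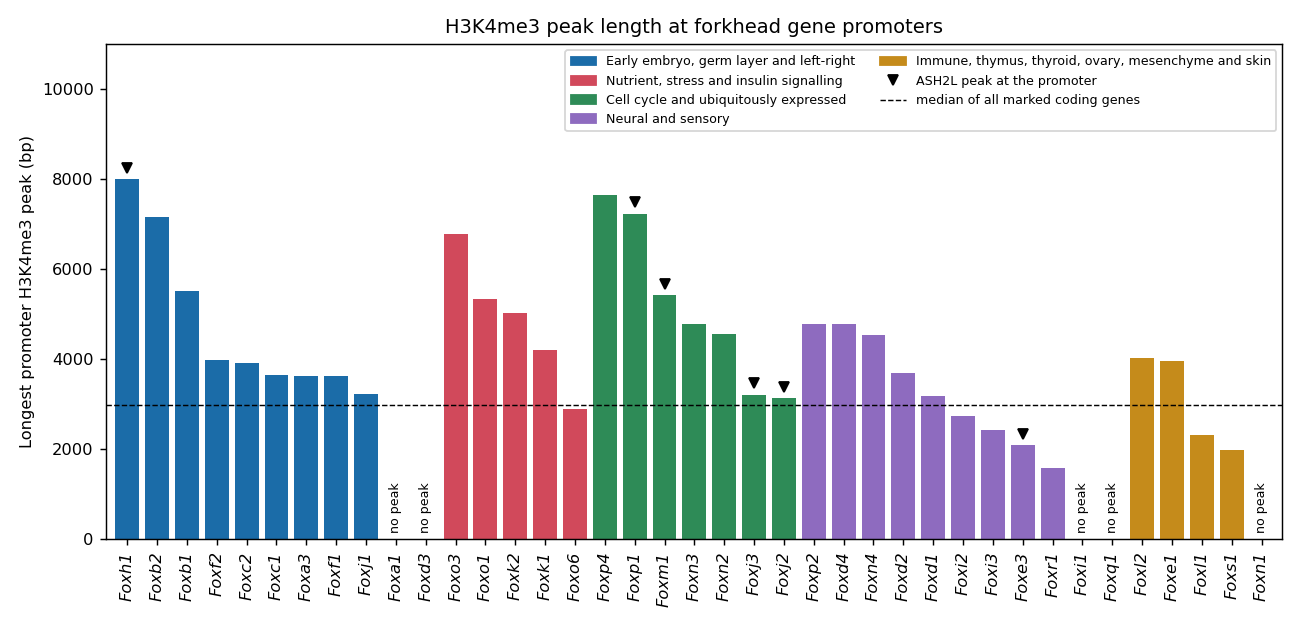
Bars give the length in bp of the longest promoter H3K4me3 peak of each forkhead gene reported singly, coloured by role group, with a triangle where an ASH2L peak was also at the promoter and a dashed line at 2975 bp, the median of all marked genes. Foxh1 has the longest peak at 7987 bp, and all members of the insulin and cell cycle groups are marked.

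Members were grouped by known roles, and their counts stand beside the 69.8% of all genes with H3K4me3 and the 8.07% with ASH2L. In the group of the early embryo, germ layers and left-right axis, 9 of 11 members were marked and 1 had ASH2L. Foxh1 had the longest peak of the family, 7987 bp with 1726 tags, longer than at 99.5% of all marked genes. This peak reached from 3442 bp upstream to 4544 bp downstream, covered the whole gene and also contained a start site of Ppp1r16a. Foxb2, a factor of the embryonic brain, had 7153 bp and 881 tags. It was nearly as long as Foxh1 and held about as many tags per length as Foxb1, its closest paralog, with 123 tags per kb at Foxb2 and 130 at Foxb1. Foxh1 held 216 tags per kb. Foxb1, which is needed in the mammillary body, had 5499 bp. The other 6 marked members of this group, Foxa3 of the liver, Foxc1 and Foxc2 of vessels and mesoderm, Foxf1 and Foxf2 of gut and lung mesenchyme and Foxj1 of motile cilia, ranged only from 3220 bp to 3968 bp.

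All 5 members that respond to nutrients, stress and insulin were marked, and none had ASH2L at the promoter. All 5 also had a CpG ratio of 0.6 or more, a class in which 95.7% of all genes were marked. Foxo3 had a peak of 6773 bp with 1386 tags and Foxo1 a peak of 5337 bp with 1133 tags. Both had high densities, of 205 and 212 tags per kb. Foxo6, the family member of the brain, had 2877 bp and 452 tags and so was the shortest of the group. Foxk1 and Foxk2, which act in metabolism and autophagy, had 4190 bp and 5018 bp.

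In the cell cycle and broadly expressed group, 7 of 7 members were marked and 4 had ASH2L. Of the 7, 6 had a CpG ratio of 0.6 or more. Their median was 8 start sites, beside 3 over all genes, and each start site adds a promoter. At the gene start alone, Foxm1 kept its ASH2L peak and Foxj2, Foxj3 and Foxp1 did not. The peak at Foxp4 measured 7635 bp with 1397 tags, and that at Foxp1, a factor of lymphocytes, heart and brain, 7229 bp with 1102 tags. The peak at Foxm1 measured 5408 bp with 748 tags. Foxn2, Foxn3, Foxj2 and Foxj3 lay between 3129 bp and 4772 bp.

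The group of neural, sensory and other tissue factors had 10 of 12 members marked, with peaks from 1563 bp to 4783 bp, and 1 member, Foxe3, had ASH2L. Among the longer ones, Foxp2, needed for vocal and motor circuits, had 4783 bp, Foxd4 4774 bp and Foxn4 of the retina 4528 bp. Foxr1 was the shortest of the family with 1563 bp and 189 tags, and Foxe3, which is needed for the lens, had 2082 bp and 271 tags. Foxi3 had 2410 bp and 379 tags. In the last group, of immune, thymus, thyroid, ovary, mesenchyme and skin factors, 4 of 5 were marked and none had ASH2L. Foxl2 of the ovary had 4019 bp and Foxe1 of the thyroid 3960 bp, whereas Foxl1 of the gut mesenchyme had 2303 bp with 185 tags and Foxs1 1962 bp with 174 tags. Each role group holds few genes, and differences between groups were not tested.

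The members had fewer tags for their length than most genes. Their median was 519 tags, with 174 at the lowest and 1726 at the highest, beside 474 over all marked genes. Per kb, however, the median was 130 tags over the members and 155 over all marked genes, and 8 of the 35 members exceeded the latter. The same held within classes of length. From 3000 bp to under 5000 bp, the median of the 19 members was 128 tags per kb, beside 167 over 5268 genes, and only Foxa3, with 199 tags per kb, exceeded the median of its class. At 5000 bp or more, the median of the 9 members was 152 tags per kb, beside 159, and Foxh1, Foxo1, Foxo3 and Foxp4 were above. Under 3000 bp, the medians were 121 over 7 members and 141 over all genes, with Foxi3 and Foxo6 above. Across the 3 classes, 28 of 35 members were below the median of all genes of their class. Foxl1, with 80.3 tags per kb, was the lowest and Foxs1, with 88.7, the next.

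Fold enrichment gave another order than length. It divides the summit by a background that MACS modelled over up to 10000 bp around the peak from the library itself, since no control was given. Its median was 4.47 over the marked members and 6.31 over all marked genes, and 30 of the 35 members were below the latter. The highest were Foxr1 with 9, Foxi2 with 8.93 and Foxi3 with 7.01, which all had peaks under 3000 bp. The lowest were Foxb2 with 2.89, Foxp4 with 2.94 and Foxp1 with 3.12, which were among the 5 longest. Across the 35 members, length and fold enrichment had a Spearman correlation of −0.59 (Pearson −0.66), and across the 14520 marked genes −0.73 (Pearson −0.67). These are across genes of 1 library, share its tags and have no test. The p-value score was related to length more weakly, with a Spearman correlation of −0.41 over the members (Pearson −0.47) and −0.14 over all marked genes (Pearson −0.25). Foxh1, with the most tags, had a score of 110.57, whereas the lowest score, 73.94, belonged to the short peak of Foxl1. The part of the local background in these values was not tested.

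**Figure D3:**
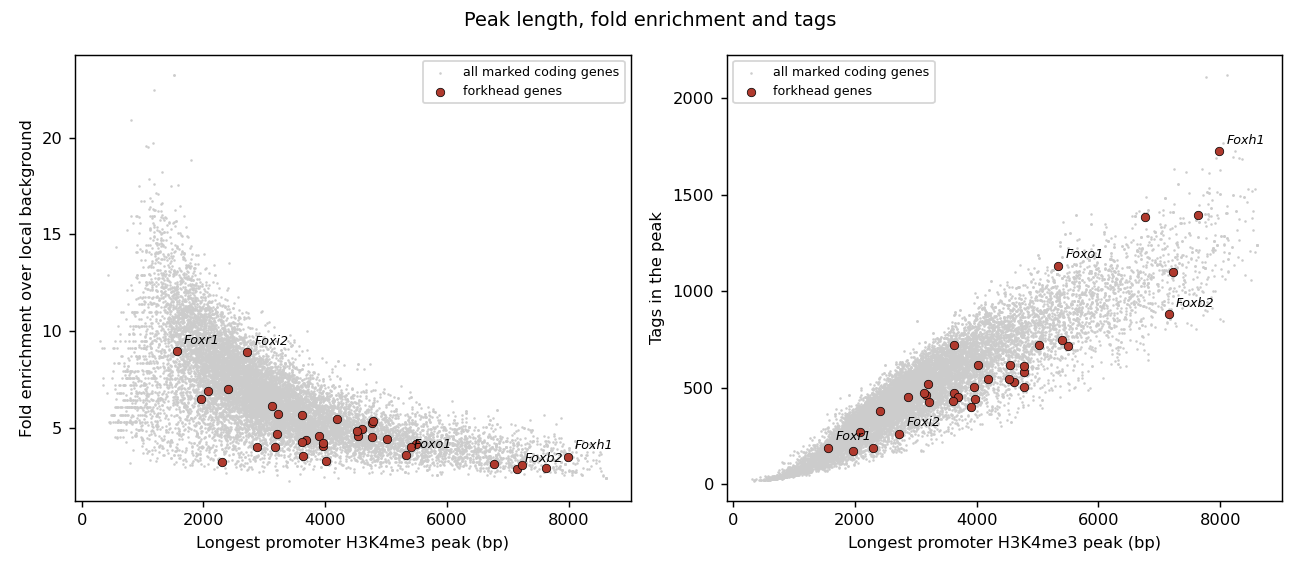
Each point is a gene, with the length in bp of its longest promoter H3K4me3 peak against fold enrichment (left) and tags (right), red for the 35 marked forkhead genes and grey for all marked genes. Long peaks have low fold enrichment in both sets, and most forkhead genes lie in the lower part of the grey cloud in tags.

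Most peaks lay over the gene start. This was the case at 34 of all 40 members (85%), beside 63.8% of all genes. Among marked genes, the shares were closer, at 97.1% of members and 91.4% of all marked genes. The exception among marked members was Foxj3, whose only peak began 1617 bp downstream of the 5′-most start, where 8 of its 10 start sites were marked. The peaks over the 34 starts extended a median of 1510 bp upstream and 2381 bp downstream, and 28 of 34 were longer downstream (82.4%), as were 77.2% of those of all genes. The summit lay within 500 bp of the start at 19 of 34 members (55.9%), beside 80.4% of all genes. At Foxb1 it lay 2240 bp downstream, and at Foxh1 it lay at −1654 bp relative to the start.

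Many forkhead genes are compact, and 13 of the 40 have a single exon. Counting every H3K4me3 peak within a gene, 4 members were covered whole (10%), Foxb2, Foxd4, Foxe3 and Foxh1, beside 2.3% of all genes. With Foxb1 and Foxl2, 6 members were covered to at least 90% (15%), beside 2.97% of all genes. The median gene length was 5326 bp over the members and 17629 bp over all genes, and its part in these shares was not tested. Among long genes the covered share varied. It was 0.304% at Foxp2, which extends over 540629 bp, and 4.59% at Foxj3 with 92116 bp, but 33.0% at Foxp4 with 57513 bp and 31.7% at Foxk1 with 60515 bp.

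**Figure D4:**
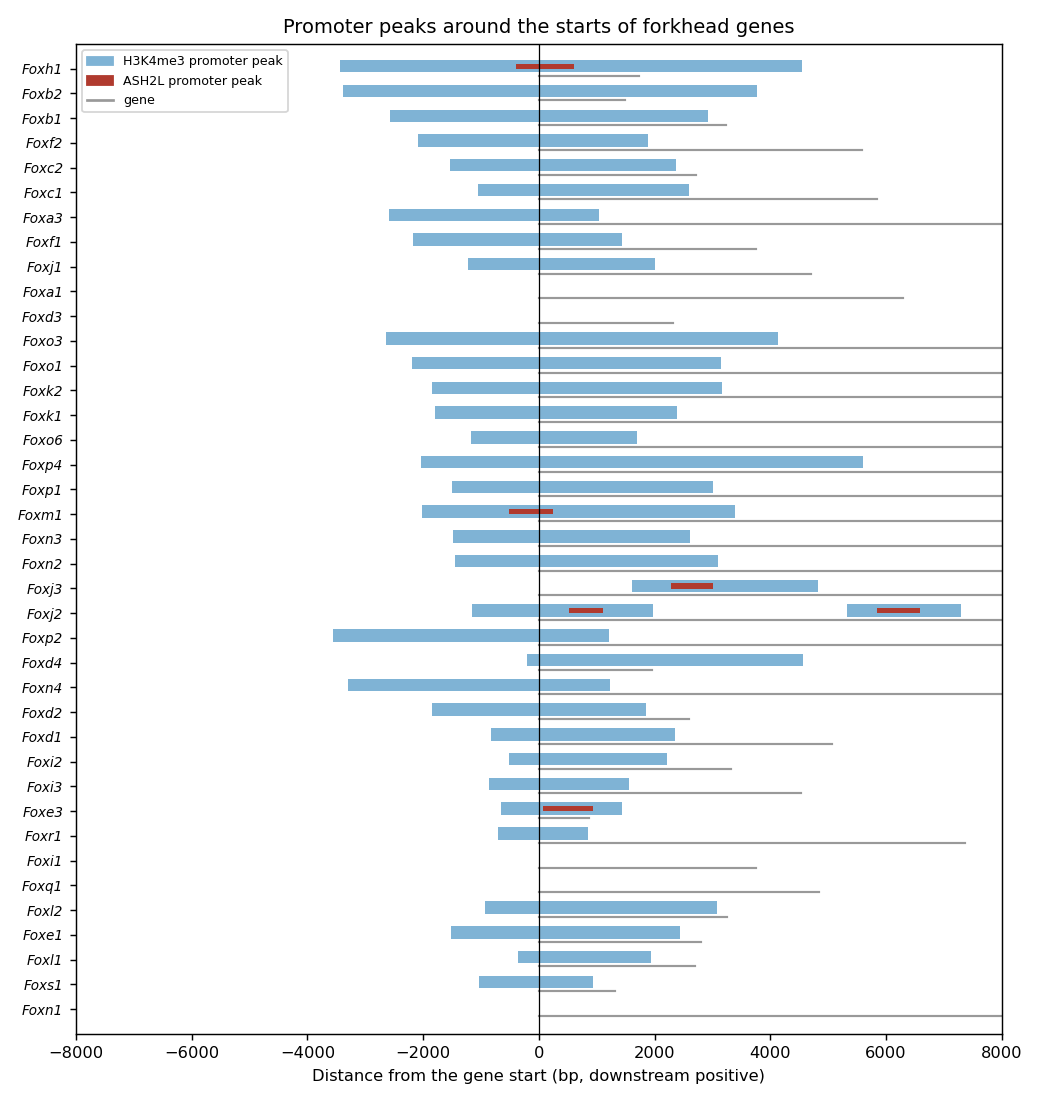
Blue bars show promoter H3K4me3 peaks and red bars promoter ASH2L peaks, in bp from the start of each forkhead gene reported singly, drawn up to 8000 bp on either side with the gene as a grey line. At most members a blue bar crosses the start, and the ASH2L peaks at Foxe3, Foxh1, Foxj2, Foxj3 and Foxm1 sit inside H3K4me3 peaks, while the one at Foxp1 is outside the drawn range.

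More than 1 promoter peak was found at 5 of the 35 marked members (14.3%), beside 17.7% of all marked genes. Foxn3, a repressor of the checkpoint response, had 4 peaks for 14 start sites. At its gene start, 4102 bp were marked with 502 tags, and peaks of 4772 bp and 4709 bp lay 147566 bp and 168272 bp downstream, with 611 and 708 tags. Foxp1 also had 4 peaks, for 22 start sites. Its longest, of 7229 bp, lay 490148 bp downstream of the gene start, where the peak measured 4514 bp with 778 tags. Foxp4 had 3 peaks, and Foxj2 and Foxo3 had 2 each. Foxp2, with 16 start sites, had a single peak at 6 of them.

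In several cases the peak also contained the start of another gene. This applied to 16 of the 35 marked members (45.7%), beside 34.8% of all marked genes. Another protein-coding gene was included at 5 members (14.3%), beside 21% of all marked genes. They included Sympk at Foxa3, Ppp1r16a at Foxh1, Frg2f1 at Foxj3 and Rhno1 at Foxm1. The noncoding genes included Fendrr at Foxf1, Foxd2os at Foxd2 and Foxl2os at Foxl2. For these members, a peak cannot be assigned to 1 of the genes.

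Marked forkhead genes in clusters had separate peaks. On chromosome 8, Foxf1, Foxc2 and Foxl1 lie within 46259 bp, and each had its own peak, of 3614 bp, 3905 bp and 2303 bp. They held 429, 399 and 185 tags. The span held 6 H3K4me3 peaks, which covered 31.2% of it, and no ASH2L peak. On chromosome 13, Foxq1, Foxf2 and Foxc1 lie within 256343 bp, of which 8 peaks covered 10.1%, also without ASH2L. Foxd2 and Foxe3 lie within 19732 bp on chromosome 4, with 3 H3K4me3 and 2 ASH2L peaks, the only cluster of these with ASH2L.

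The ASH2L list held 7 peaks at forkhead promoters, all of which overlapped H3K4me3. Of all genes with a promoter ASH2L peak, 97.4% also had one of H3K4me3. The scores of the 7 peaks ran from 50.6 to 75.89, beside a median of 61.53 over the whole list and a cutoff of 50, and their tags from 29 to 54, beside a median of 32. At Foxh1, the peak chr15:76669346-76670350 had 54 tags (95% exact Clopper-Pearson interval 41 to 70, for counting error only) and a fold enrichment of 4.77. It spanned the gene start, with its summit 54 bp downstream in an exon of the untranslated region. At Foxm1, chr6:128362451-128363209 had 33 tags (interval 23 to 46) and a fold enrichment of 4.93, with the summit 217 bp upstream of the Foxm1 start, and it also contained a start of Rhno1.

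At Foxe3, the peak chr4:114925080-114925942 had 37 tags (26 to 51) and a fold enrichment of 3.95. It lay from 71 bp to 933 bp downstream of the start and ran past the end of this single-exon gene of 867 bp, with its summit in the coding exon. At Foxj2, which had a peak at each of 2 start regions, chr6:122820433-122821029 had 29 tags and a fold enrichment of 6.57 with its summit in a UTR exon, and chr6:122825757-122826495 had 31 tags and 4.83 with its summit in an intron. Both Foxj2 peaks coincided with separate H3K4me3 peaks, and the first also contained a start of the antisense gene Gm26826.

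At Foxj3, chr4:119539293-119540006 had 31 tags and a fold enrichment of 5.50, and 8 of its 10 start sites had this peak at their promoter. The peak also contained a start of the protein-coding gene Frg2f1. At Foxp1, chr6:99027961-99028669 had 38 tags and a fold enrichment of 4.41. This peak was at 5 of 22 start sites, within the 7229 bp H3K4me3 peak far downstream, and not at the gene start. The counting intervals of the 7 peaks all overlapped, from 41 to 70 at Foxh1 down to 19 to 42 at the first peak of Foxj2, and no order is given among them.

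The sequence at these summits was not uniform. The following 101 bases are centred on the summits, read on the strand of the gene from GRCm38.p6, with CpGs in capitals, for summits in an intron or a coding exon. The summits at Foxp1 and Foxe3 had 19 and 16 CpGs, and the intronic summit at Foxj2 had 4.

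Foxp1, chr6:99028360-99028460, reverse strand: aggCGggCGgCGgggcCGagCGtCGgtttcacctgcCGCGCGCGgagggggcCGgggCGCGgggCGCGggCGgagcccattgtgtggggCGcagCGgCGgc

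Foxe3, chr4:114925341-114925441, reverse strand: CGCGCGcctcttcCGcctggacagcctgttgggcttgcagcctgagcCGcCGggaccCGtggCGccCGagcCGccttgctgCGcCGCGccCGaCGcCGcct

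Foxj2, chr6:122826049-122826149, forward strand: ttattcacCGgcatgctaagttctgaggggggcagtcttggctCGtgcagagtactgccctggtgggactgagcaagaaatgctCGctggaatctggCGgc

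Most members had no ASH2L peak near the gene start. The nearest ASH2L peak was more than 100000 bp from the gene start at 28 of 40 members (70%), Foxp1 among them, beside 66.1% of all genes, and the median distance was 289746 bp, beside 198460 bp over all protein-coding genes. Foxd2, a factor of kidney and mesenchyme, was the closest member without a promoter peak. An ASH2L peak of 35 tags, chr4:114906975-114907760, began 1113 bp downstream of its start.

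Forkhead factors bind the sequence GTAAACA, or TGTTTAC on the other strand. Either was present in the 1101 bp promoter window of 7 members (17.5%), which included Foxi3, Foxj1, Foxo1, Foxp1, Foxp2 and Foxp4, beside 13% of all protein-coding genes. TATAAA, on either strand, was present at 14 members (35%), beside 46.6%. In the 300 base RefSeq promoters, GTAAACA or its complement was present in 1 of 25 members, Foxa1, whose sequence is printed above, and in 3.65% of all promoters. These are matches of letters and do not show binding.

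Regulators and partners of forkhead proteins were looked up for comparison. The list holds the AKT and SGK1 kinases with PDPK1, the 14-3-3 proteins that retain FOXO factors in the cytoplasm, cofactors such as SIRT1, EP300 and CREBBP, the ubiquitin enzymes USP7, SKP2 and MDM2, and the SMADs that act with FOXH1. All 20 genes were marked, beside the 69.8% of all genes, with a median length of 3618 bp. ASH2L was present at 5 of them, Ep300, Sgk1, Sirt1, Usp7 and Ywhaq, the highest being Ep300 with 65 tags, beside 11.3% of all marked genes.

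The H3K4me3 count depended on the choice of peaks. With H3K4me3 peaks at or above the median fold enrichment of 6.46, 6 of 40 members were marked (15%), Foxe3, Foxi2, Foxi3, Foxj2, Foxr1 and Foxs1, beside 36.7% of all genes. The members were thus above the share of all genes with all peaks and below it with these. When the midpoint of the peak had to lie in the promoter, 11 members were marked (27.5%), beside 38.1%. In the other 8 settings the count lay between 34 and 37, above the share of all genes in each. The wider window of 2500 bp on both sides gave 37 members, with Foxa1 and Foxq1 added, beside 73.3% of all genes. RefSeq transcripts gave the same 37 members, beside 70.6%. A window of 1000 bp on both sides, chosen after seeing the data, gave 36 with Foxq1, beside 70.7%. The count was 35 with 500 bp on both sides (all genes 69.8%), with protein-coding transcripts (68.3%) and with an overlap of 200 bp (69.3%). It was 34 at the gene start alone, without Foxj3, beside 65%, and 34 with scores of at least 100, without Foxl1, beside 67.3%.

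The ASH2L count moved among few genes. It was 7 with 2500 bp on both sides, with Foxd2 added, beside 9.06% of all genes. It stayed at 6 with 500 bp (8.38%) or 1000 bp (8.59%) on both sides and with protein-coding transcripts (7.76%). Foxe3 was lost with an overlap of 200 bp, which left 5 members beside 7.44%, and with the midpoint rule, which left 5 beside 5.77%. RefSeq transcripts left 4 members, Foxh1, Foxj3, Foxm1 and Foxp1, beside 7.97%. The gene start alone left Foxe3, Foxh1 and Foxm1, beside 6.44%, and peaks at or above the median fold enrichment left Foxj2 and Foxj3, beside 3.93%. With a score of at least 100, no member had an ASH2L peak, beside 0.961%. Foxh1 and Foxm1 thus kept their ASH2L peak under each promoter and overlap rule, and neither kept it under the thresholds of fold or score.

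**Figure D5:**
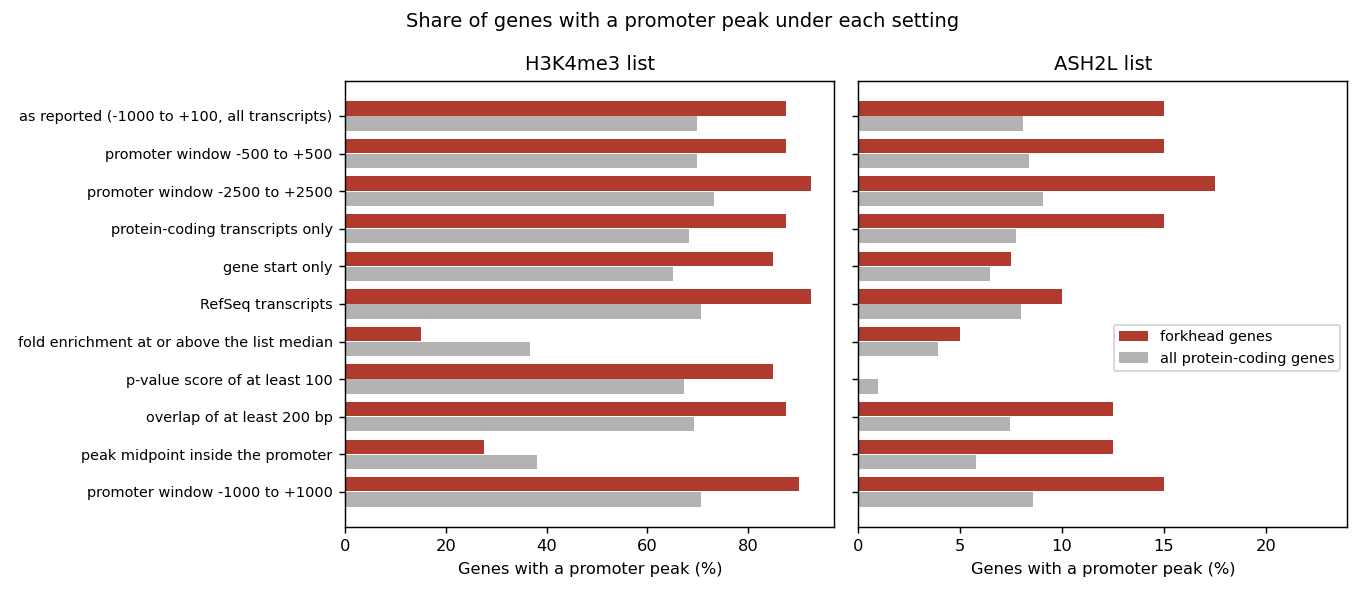
Bars give the percentage of genes with a promoter peak in the H3K4me3 list (left) and the ASH2L list (right) under each setting, red for the 40 forkhead genes and grey for all protein-coding genes. In the H3K4me3 list the red bar is the longer in all settings but those that require high fold enrichment or the peak midpoint in the promoter.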

How the data were processed

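CUT&RUN reads were mapped by the authors to mm10 with Bowtie2, duplicates were merged, and peaks were called with MACS. The headers of both lists give version 1.4.3, a cutoff of 1e-05 on p and None as control, and the methods give another minor version. The deposited tag counts are the numbers of tags of the merged library in each peak and were not normalized. Fold enrichment as deposited is a ratio to the local background that the authors' peak caller modelled, and the deposited score is −log10 p multiplied by 10. The methods state that short fragments were kept, but the tag sizes in the headers, 142 bp for H3K4me3 and 151 bp for ASH2L, are longer than that limit.

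Promoters were taken from GENCODE vM21 on GRCm38 and compared with peaks by overlap, without any test. All members are accounted for, with fuller values for those with ASH2L and for the 5 longest and 5 shortest H3K4me3 peaks. The members and the lists of genes were chosen with earlier results of these data known. Counting error is given as 95% exact intervals, and the 2 lists have no values per sample. Alternatives changed the window, the transcripts, the peak thresholds and the overlap, and the window of 1000 bp on both sides was chosen after seeing the data. The overlap procedure was tested on simulated data, in which 100% of 1000 promoters were recovered. Values of some genes that the symbol pattern matches are not reported here. Python 3.11.15 was used with numpy 2.4.6, scipy 1.17.1, pysam 0.24.0 and matplotlib 3.10.9.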

Additional observations from a re-analysis of the deposited data

How the results depend on the processing

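For 4 results, namely the counts of members with H3K4me3 and with ASH2L and the median length and tags of the longest peak, 44 alternative values were computed. Of these, 37 stayed within 1.5 times the count or, for medians, within the order-statistic 95% interval over the members. Of the others, restriction to peaks at or above the median fold enrichment left 6 members with H3K4me3 and 2 with ASH2L, and the medians over these 6 were 2022 bp and 266.5 tags. With the peak midpoint in the promoter, 11 members had H3K4me3. With the gene start alone, 3 members had ASH2L, since Foxj2, Foxj3 and Foxp1 have it at other starts, and with a score of at least 100 the number was 0. The RefSeq transcripts gave 37 members with H3K4me3 and 4 with ASH2L. Of 365 values for the tags of single members, 354 stayed within the counting interval, and the other 11 concerned 6 members. With the midpoint rule the tags were 142 at Foxo3 and 484 at Foxp4, and with high fold enrichment 283 at Foxj2. Foxn3 had 502 at the gene start or 708 at its peak with the most tags, Foxp1 had 778 at the gene start, and Foxo6 had 362 with RefSeq transcripts. No paired analysis was possible because the duplicates were merged before peak calling, which also means that no duplicate could be left out. Without a control library, tags that gather at a site whatever the antibody are not removed, and no peak list of parental cells was used here.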
